A study of Mus musculus with 12 samples.

Results

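Inhibitory interneurons release gamma-aminobutyric acid (GABA) onto the excitatory pyramidal and granule neurons of the hippocampus, and this report describes 8 genes that mark them: Gad1, Gad2, Slc32a1, Pvalb, Calb2, Reln, Lhx6 and Dlx1. The members were the rows of a hippocampal expression table whose Ensembl identifier carries these symbols in GENCODE M21, so they were 8 of 26409 genes listed, and all 8 were among the 18197 genes that averaged 0.1 TPM or more and were tested. TPM is an estimate of transcript abundance that is scaled by transcript length and by library. GABA is made from glutamate by glutamate decarboxylase, packed into synaptic vesicles by a dedicated transporter, and detected on the receiving cell by GABA-A and GABA-B receptors. Hippocampal interneurons arise outside the hippocampus, in the ganglionic eminences of the embryo, and divide into subtypes that are told apart by calcium-binding proteins, neuropeptides and secreted proteins.

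The study asked what loss of Dek, which encodes a chromatin protein, does in the hippocampus of mice 6 to 12 months old. The 4 groups of bulk RNA-seq libraries were female wild-type (WT), male WT, female Dek constitutive knockout (cKO) and male Dek cKO, with 3 libraries each, from mice that had been through behavior testing. The cKO mice carried a germline deletion of exons 3 to 4 of Dek that was made by crossing floxed mice to CMV-Cre mice, and the Cre transgene was then bred out, so every cell type carried the deletion. The line was kept by mating heterozygotes. Dek itself lay between 44.2 and 51.9 TPM in the WT and between 5.55 and 9.25 TPM in the cKO libraries, a log2 fold change of -2.74 (SE 0.10, adjusted p = 1.17e-08). TPM keeps no read depth, so the counting error behind each value is unknown. The library labelled female cKO 3 held the Y-linked Eif2s3y at 72.7 TPM and the library labelled male cKO 1 held it at 0.111 TPM, each against its label, so fold changes of the members are also given without these 2 libraries of conflicting sex. The names of the female WT libraries share a prefix that no other library has, so in the female comparison that prefix and the genotype cannot be told apart. Markers of glutamatergic neurons, 8 of 8 of them above 0 in every library, summed to between 3340 and 4060 TPM.

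No interneuron gene passed the test for a difference between Dek cKO and WT. Of the 8 members, 0 passed an adjusted p of 0.05 with a fold change over 1.2 across both sexes in limma, where 0.148% of all genes tested did. At an unadjusted p under 0.05 the count was also 0 of 8, against 6.64% of all genes, and the cKO and WT values overlapped for each member, while 0.676% of all genes did not overlap. The members' log2 fold changes had a median of 0.06 and 7 of 8 were above 0, beside a median of 0.02 and 55.8% above 0 over all genes tested. Their 95% confidence intervals, on the log2(TPM + 0.1) scale used for every fold change here, were narrowest for the genes of GABA synthesis and release and widest for Calb2 and Pvalb. In bulk tissue, fewer cells of a type and less RNA per cell cannot be told apart.

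**Figure D1:**
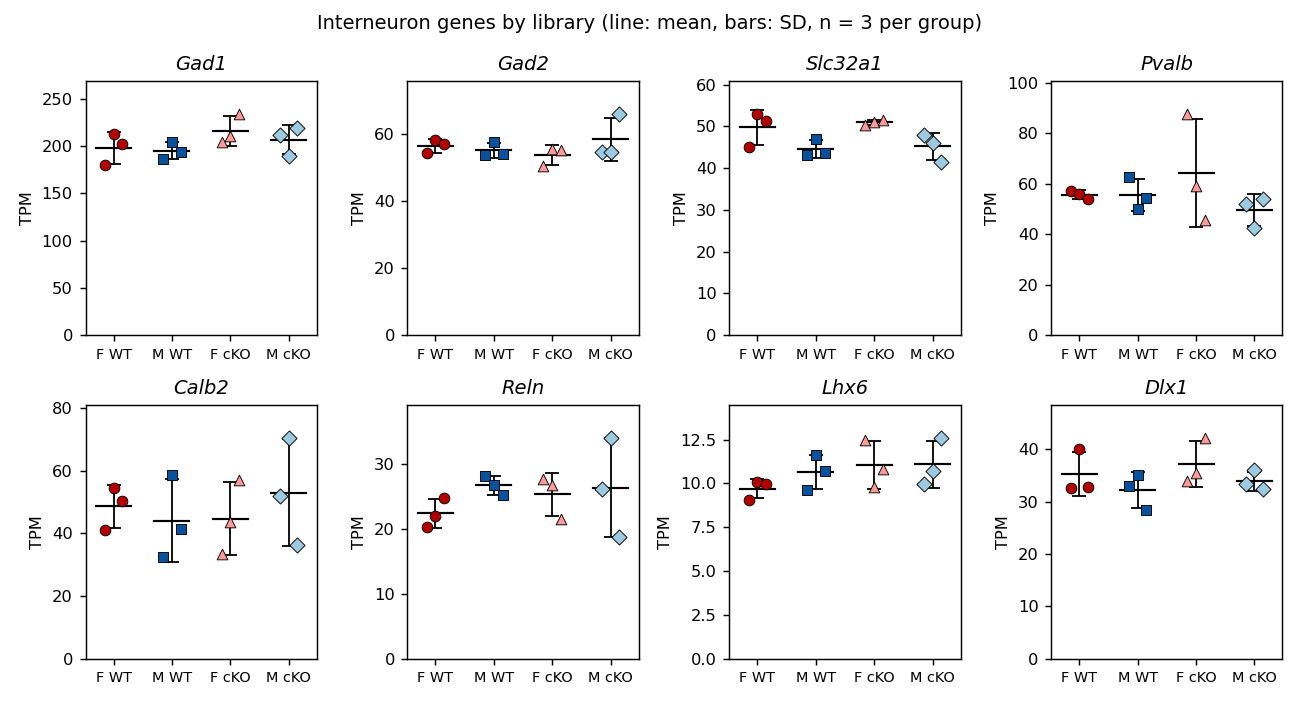
TPM of the 8 interneuron genes (vertical axes from 0) in each library of the 4 groups (F, female; M, male), with the group mean as a line and the SD as bars, n = 3 per group. The cKO and WT points overlap in every panel, and single cKO libraries stand away from the rest for Pvalb (87.6 TPM in female cKO 1) and Calb2 (70.5 TPM in male cKO 2).

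Gad1 and Gad2 encode the larger and the smaller form of glutamate decarboxylase, the enzyme that makes GABA; the product of Gad1 is spread through the cell and that of Gad2 is enriched at synaptic terminals. Gad1 (ENSMUSG00000070880; chromosome 2, 70553072 to 70602014, plus strand, GRCm38) was at 180, 213 and 202 TPM in female WT and 187, 205 and 194 TPM in male WT. It was at 204, 211 and 234 TPM in female cKO and 212, 190 and 219 TPM in male cKO. The lowest cKO library lay inside the WT range, and female cKO 3 and male cKO 3 lay above it. The mean was 197 ± 12.3 TPM (SD, n = 6) in WT and 212 ± 14.8 TPM (SD, n = 6) in cKO, a log2 fold change of 0.10 (SE 0.06, 95% interval -0.01 to 0.22) with an unadjusted p of 0.0812 and an adjusted p of 0.805 (limma). This was the smallest p among the members. Without the libraries of conflicting sex the log2 fold change was 0.065 (adjusted p = 0.859).

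Gad2 (ENSMUSG00000026787; chromosome 2, 22622205 to 22693874, plus strand) was at 54.1, 58.0 and 56.8 TPM in female WT and 53.6, 57.6 and 53.8 TPM in male WT. The cKO libraries held 50.3, 55.5 and 55.1 TPM in females and 54.5, 54.6 and 65.8 TPM in males. Apart from male cKO 3, at 65.8 TPM, the libraries of both genotypes fell between 50.3 and 58.0 TPM. The log2 fold change was 0.00 (SE 0.06, 95% interval -0.12 to 0.13, adjusted p = 0.999). It was -0.04 without male cKO 3 and 0.02 without the libraries of conflicting sex.

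Gad1 stood well above Gad2 in all libraries, and their transcripts share only short exact runs of bases. The longest run of bases that any Gad1 transcript shares with any Gad2 transcript in GENCODE M21, on the same strand, is 17 bases, and the longest shared by Dlx1 and its neighbour Dlx2 is 15 bases. Both are shorter than 31 bases, the word length that kallisto uses by default to place reads, and they are shown because they bear on whether reads of related genes could be swapped:

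Gad1 and Gad2: cctcacaagatgatggg

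Dlx1 and Dlx2: tccaagttcaagaag

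Words of 31 bases shared on the same strand with any other gene made up 3.97% of Gad1, where 289 of the 304 shared words lay in the pseudogene Gad1-ps, 2.12% of Lhx6, 1.75% of Gad2, 0.286% of Reln and 0.2% of Dlx1. They made up 0% of Slc32a1, Pvalb and Calb2. On the opposite strand, 24.2% of the words of Slc32a1 were shared with Gm14205 and 5.84% of those of Dlx1 with antisense genes, chiefly Dlx1as. The library kit kept strand, but whether the deposited values used it is not given in the sources used here, so the levels of these 2 genes could include reads of their antisense partners.

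Slc32a1 encodes the vesicular GABA transporter, which loads GABA and glycine into vesicles and is the usual label of an inhibitory terminal. Slc32a1 (ENSMUSG00000037771; chromosome 2, 158610767 to 158615748, plus strand) was at 45.1, 52.9 and 51.2 TPM in female WT and 43.1, 46.9 and 43.6 TPM in male WT. The cKO values were 50.3, 51.0 and 51.5 TPM in females and 48.0, 46.0 and 41.5 TPM in males. All 3 female cKO libraries lay within the range of the female WT libraries, and the lowest value of the series was in male cKO 3. The log2 fold change was 0.03 (SE 0.07, 95% interval -0.12 to 0.17, adjusted p = 0.979). It was 0.002 without the libraries of conflicting sex and between 0.004 and 0.07 with each library left out in turn. As a common measure of these 3 genes of GABA synthesis and packing, their log2 values were centred over the 12 libraries and averaged. This interneuron index was -0.02 ± 0.08 (SD, n = 6) in WT and 0.02 ± 0.06 (SD, n = 6) in cKO, with values from -0.10 to 0.09 in WT and from -0.06 to 0.10 in cKO.

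Pvalb encodes parvalbumin, the calcium buffer of fast-spiking basket and axo-axonic cells. Pvalb (ENSMUSG00000005716; chromosome 15, 78191114 to 78206400, minus strand) was at 57.3, 55.9 and 53.9 TPM in female WT and 62.5, 50.0 and 54.2 TPM in male WT. Female cKO libraries spread widely, at 87.6, 59.2 and 45.6 TPM, and male cKO libraries were at 52.1, 42.3 and 54.1 TPM. The SD was 4.16 TPM over the 6 WT and 16.2 TPM over the 6 cKO libraries, with the WT range inside the cKO range. The log2 fold change was -0.01 (SE 0.14, 95% interval -0.31 to 0.29, adjusted p = 0.999), without female cKO 1 it was -0.14 (SE 0.09, adjusted p = 0.807), and without the libraries of conflicting sex 0.08 (adjusted p = 0.946). Female cKO 1 also had the highest sum of the 6 listed cortex markers, none at 0 in any library. They summed to 183 TPM there and 143 TPM in female cKO 2, against 62.8 TPM in female cKO 3. The sums were 78.2 to 102 TPM over the WT and 68.0 to 91.4 TPM over the male cKO libraries. The list includes Lamp5, also a subtype marker below, and a gene that the study reported as raised in female cKO. Its sum is therefore not a measure of cortical tissue alone. For correlations, the score of a list was the median over its tested genes of log2(TPM + 0.1), centred for each gene over the 12 libraries. Members entered as centred log2 values too, so the r values here do not belong to the sums. Over 12 libraries, Pvalb correlated with the cortex marker score at Pearson's r 0.79 and Spearman's rho 0.69, and at r 0.64 without female cKO 1 and male cKO 2, its extreme libraries. The part of cortical tissue in the Pvalb values was not tested.

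Calb2 encodes calretinin, the calcium-binding protein of interneurons that target other interneurons, and in the mouse hippocampus it also marks mossy cells, newborn granule neurons and Cajal-Retzius cells. Calb2 (ENSMUSG00000003657; chromosome 8, 110137502 to 110168210, minus strand) was at 41.0, 54.4 and 50.5 TPM in female WT and 32.6, 58.5 and 41.3 TPM in male WT. It was at 33.5, 43.7 and 56.9 TPM in female cKO and 51.9, 70.5 and 36.4 TPM in male cKO. Calb2 was the most variable member, with a coefficient of variation of 24.1% over the 12 libraries, and each genotype held low and high libraries. The log2 fold change was 0.05 (SE 0.18, 95% interval -0.34 to 0.45, adjusted p = 0.989). It was -0.06 without male cKO 2 and -0.05 without the libraries of conflicting sex. Male cKO 2, the library highest in Calb2, was also highest in 5 markers of the meninges, which summed to 227 TPM there, against 96.6 to 151 TPM over the WT, 45.6 to 148 TPM over the female cKO and 66.6 to 166 TPM over the other male cKO libraries, with no marker at 0. Over 12 libraries Calb2 correlated with the marker score of the meninges at Pearson's r 0.7. With that of immature granule neurons r was 0.65, and with that of Cajal-Retzius cells 0.4. The part of these tissues and cells in the Calb2 values was not tested.

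Across the libraries, Pvalb tended to be lower where Calb2 was higher. Their Pearson's r was -0.79 and Spearman's rho -0.83 over 12 libraries, and r was -0.74 without female cKO 1 and male cKO 2. This was the lowest of the 28 pairs of members, for which r ranged up to 0.66 (Slc32a1 with Dlx1) with a median of 0.06, and 15 pairs were above 0. The 12 points share their dissections, since each library gives both values, and no test was made.

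**Figure D2:**
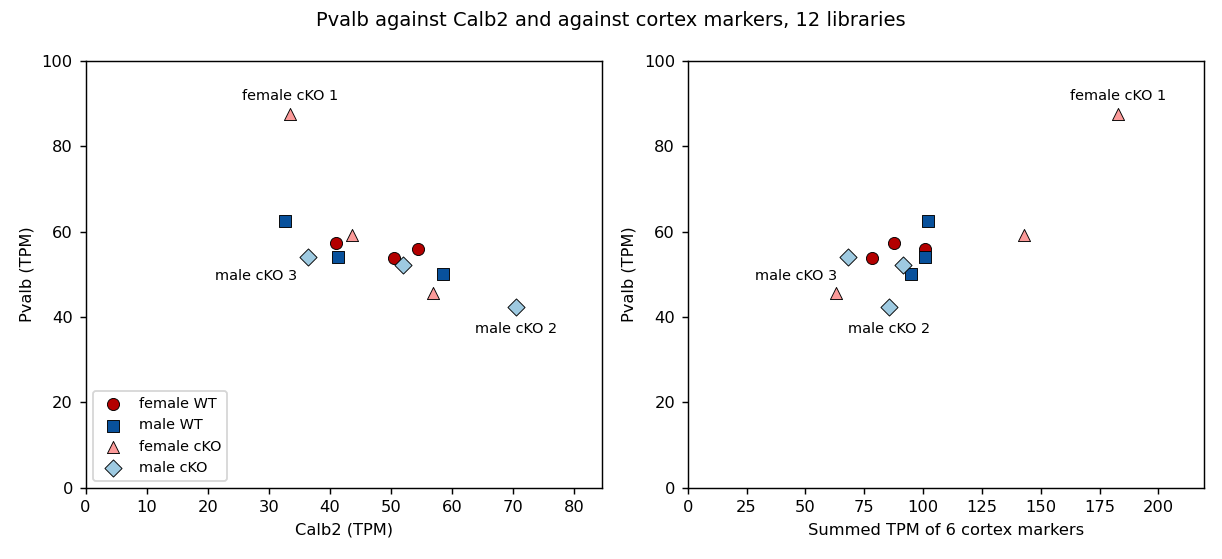
Pvalb (TPM, vertical axes) in each of the 12 libraries against Calb2 (TPM, left) and against the summed TPM of 6 cortex markers (right), with a symbol for each group. Female cKO 1 is high in Pvalb (87.6 TPM) and in cortex markers (183 TPM), and male cKO 2 combines the lowest Pvalb (42.3 TPM) with the highest Calb2 (70.5 TPM).

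Reln encodes reelin, a secreted protein that guides neuronal layering in the embryo and in the adult hippocampus comes from interneurons near the outer layers and from surviving Cajal-Retzius cells. Reln (ENSMUSG00000042453; chromosome 5, 21884454 to 22344702, minus strand) was at 20.3, 22.0 and 24.8 TPM in female WT and 28.1, 26.8 and 25.2 TPM in male WT. In cKO it was at 27.7, 26.7 and 21.5 TPM in females and 26.2, 34.0 and 18.8 TPM in males. Male cKO 2 and male cKO 3 were the highest and the lowest of all 12 libraries, so the WT range lay inside the cKO range. The log2 fold change was 0.06 (SE 0.13, 95% interval -0.22 to 0.33, adjusted p = 0.979), and it was -0.03 without male cKO 2, 0.14 without male cKO 3 and 0.10 without the libraries of conflicting sex. The 5 Cajal-Retzius markers, none at 0, summed to between 15.7 and 20.7 TPM in WT. The sums were 18.3 to 20.6 TPM in female cKO and 18.7 to 22.6 TPM in male cKO. Over 12 libraries Reln correlated with their score at Pearson's r -0.11, and their part in the Reln values was not tested.

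Lhx6 and Dlx1 encode homeodomain transcription factors of the interneuron lineage: Lhx6 keeps the identity of cells from the medial ganglionic eminence, which become the parvalbumin and somatostatin subtypes, and Dlx1 acts with Dlx2 in interneuron migration and survival. Lhx6 (ENSMUSG00000026890; chromosome 2, 36081953 to 36105408, minus strand) was at 9.07, 10.1 and 9.96 TPM in female WT, 9.63, 11.6 and 10.7 TPM in male WT, 12.5, 9.79 and 10.8 TPM in female cKO and 9.99, 10.7 and 12.6 TPM in male cKO. Only female cKO 1 and male cKO 3 exceeded the WT range. Its log2 fold change was the largest of the members, at 0.12 (SE 0.09, 95% interval -0.07 to 0.30, adjusted p = 0.882), and it was 0.02 with those 2 libraries left out, an alternative added after the data were seen, and 0.16 without the libraries of conflicting sex. Lhx6 was lower where oligodendrocyte markers were higher, with Pearson's r -0.77 and Spearman's rho -0.87 over 12 libraries. Without female cKO 1 and male cKO 3, its extreme libraries, r was -0.78. This pair and that of Pvalb with the cortex markers were among the strongest found when each member was correlated with each other list. So was Slc32a1 with the listed transcription factors of interneuron development, at Pearson's r 0.79 and Spearman's rho 0.79. That r was 0.64 without female WT 2 and male cKO 3, the extreme libraries of Slc32a1. The 5 oligodendrocyte markers, none at 0, summed to 3680 to 4020 TPM in female WT, 2080 to 4230 TPM in male WT, 2930 to 3840 TPM in female cKO and 2380 to 3550 TPM in male cKO, and their part in the Lhx6 values was not tested.

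Dlx1 (ENSMUSG00000041911; chromosome 2, 71528113 to 71533981, plus strand) was at 32.7, 40.1 and 32.9 TPM in female WT and 33.1, 35.1 and 28.5 TPM in male WT. The cKO values were 34.0, 35.4 and 42.2 TPM in females and 33.3, 36.0 and 32.4 TPM in males. Only female cKO 3 stood above the WT range. The log2 fold change was 0.08 (SE 0.08, 95% interval -0.10 to 0.25, adjusted p = 0.93). It was 0.03 without female cKO 3 and 0.04 without the libraries of conflicting sex.

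Since TPM is scaled by transcript length, levels can be set side by side between genes. Gad1 had the highest mean TPM, 204 ± 15.1 (SD, n = 12), above Pvalb at 56.2 ± 11.3, in 12 of 12 libraries. Pvalb and Gad2, at 55.8 ± 3.74, did not keep an order, with Pvalb higher in 5 of 12 libraries. Gad2 exceeded Slc32a1, at 47.6 ± 3.80, in 12 of 12, while Slc32a1 and Calb2, at 47.6 ± 11.5, changed places, with Slc32a1 higher in 7 of 12. Calb2 exceeded Dlx1, at 34.6 ± 3.60, in 10 of 12 libraries, and Dlx1 exceeded Reln, at 25.2 ± 4.12, and Reln exceeded Lhx6, at 10.6 ± 1.12, in 12 of 12. The subtype markers were the most variable members: the coefficient of variation was 6.69% to 7.99% for Gad1, Gad2 and Slc32a1, 10.4% and 10.5% for Dlx1 and Lhx6, and 16.4% to 24.1% for Reln, Pvalb and Calb2.

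Within each sex the members gave the same count. In females 0 of 8 passed the threshold, where 0.0165% of all genes did, and in males 0 of 8, where 0.0165% did, and the count at an unadjusted p under 0.05 was also 0 of 8 in each sex, where 5.79% of all genes in females and 5.45% in males had one. The median log2 fold change of the members was 0.10 in females and 0.07 in males. Pvalb had estimates of 0.15 in females and -0.17 in males, Calb2 of -0.15 and 0.25, Reln of 0.17 and -0.06, and Gad2 of -0.07 and 0.08. The difference between the sexes was itself tested: it was 0.32 for Pvalb (95% interval -0.27 to 0.91) and -0.40 for Calb2 (95% interval -1.23 to 0.44), each with an adjusted p of 0.966, and 0 of 8 members passed, as did 0% of all genes. The female WT libraries carry their own name prefix, so that prefix and the difference between the sexes cannot be told apart. The intervals within a sex reached from -0.74 to 0.84, both for Calb2. Without the libraries labelled female cKO 3 and male cKO 1, 0 of 8 members passed in any of these comparisons, and the members' median over both sexes was 0.05. Pvalb was then at 0.37 in females (adjusted p = 0.599) and -0.21 in males (adjusted p = 0.713), with a difference between the sexes of 0.58 that had the only unadjusted p under 0.05 among the members there (0.0405, adjusted p = 0.548), and the difference for Calb2 was -0.58 (adjusted p = 0.722). With the 3 male WT libraries as the only WT, which leaves out the differently named female WT, the median was 0.08 and 0 of 8 passed. This fit set cKO libraries of both sexes against WT of 1 sex, so sex and genotype were not balanced in it.

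The receiving side of the inhibitory synapse was then set beside these markers. GABA-A receptors are chloride channels of 5 subunits, mostly alpha, beta and gamma, and 16 of the 19 listed subunit genes were tested, since Gabra6, Gabrp and Gabrr3 had means under 0.1 TPM. Of the 16 subunits, 0 passed the adjusted threshold across both sexes, where 0.148% of all genes did. Estimates were below 0 for 13 of 16, beside 8041 of all 18197 genes tested. That count was 9 of 16 without male cKO 3 and 8 of 16 without both male cKO 3 and female cKO 1. By sex it was 6 of 16 in females and 13 of 16 in males. The subunits' median log2 fold change was -0.07, beside 0.06 for the 8 interneuron genes and 0.02 for all genes tested. At an unadjusted p under 0.05 the count was 2 of 16, both below 0, against 6.64% of all genes. The lowest adjusted p in the list was 0.592. Among the 2 was Gabra5, which encodes an alpha subunit found largely outside synapses and prominent in the hippocampus. Gabra5 ranged from 46.5 to 54.8 TPM in WT (median 49.2) and from 29.5 to 53.6 TPM in cKO (median 42.1), a log2 fold change of -0.26 (SE 0.11, adjusted p = 0.704), and the genotypes overlapped. Of the 13 subunits given singly here, the others lay between -0.34 (Gabre, adjusted p = 0.894) and 0.15 (Gabrr2, adjusted p = 0.95). Gabre, Gabrq and Gabrr1 averaged under 1 TPM, so their estimates rest on values near the floor. Tested with only the subunits that averaged 1 TPM or more, the median was -0.04. With 1 TPM added to all values in place of 0.1 TPM, the median of the 16 subunits was -0.03.

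**Figure D3:**
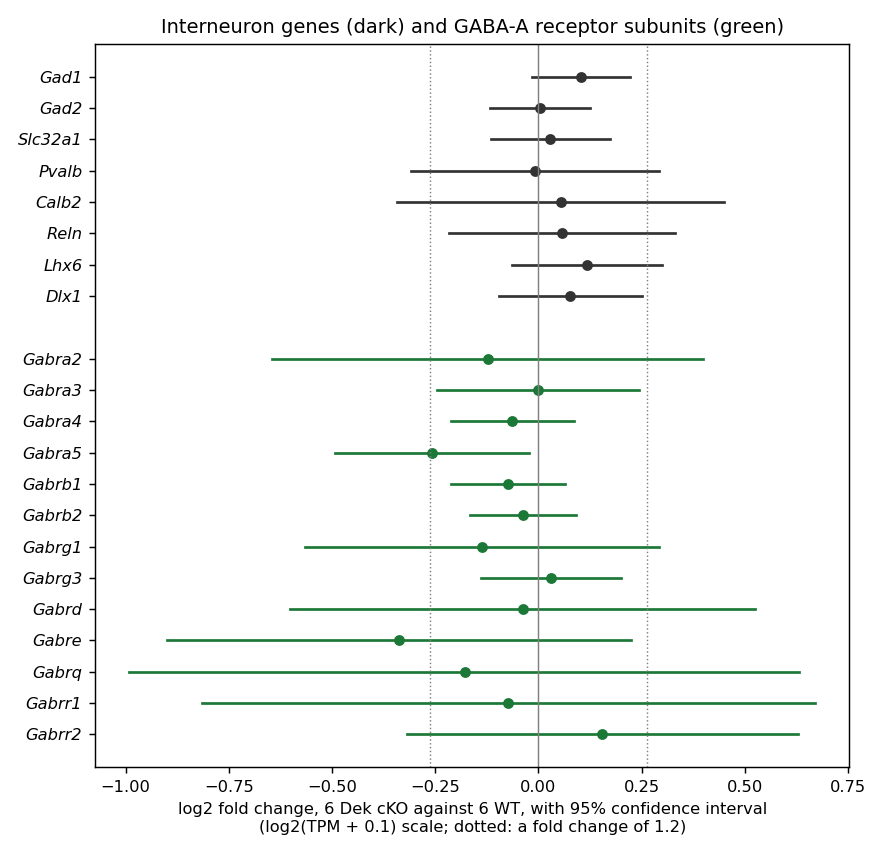
Log2 fold change of 6 Dek cKO against 6 WT libraries (horizontal axis) with its 95% confidence interval for the 8 interneuron genes (dark) and 13 of the 16 tested GABA-A receptor subunits (green); dotted lines mark a fold change of 1.2. The interneuron genes lie between -0.01 and 0.12 with intervals that cross 0, and among the subunits drawn only the interval of Gabra5 does not cross 0.

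The level of the receptor subunits and the interneuron index had a correlation near 0 across the libraries. Pearson's r was 0.02 and Spearman's rho 0.01 over 12 libraries. Without female WT 1 and male WT 1, the extreme libraries of the index, r was 0.07, and without female cKO 1 and male cKO 3 it was 0.12. The genes of the index did not always move together. Over 12 libraries r was 0.41 for Gad1 with Gad2, 0.45 for Gad1 with Slc32a1 and -0.28 for Gad2 with Slc32a1. The last was 0.7 without female cKO 1 and male cKO 3. Neither this correlation nor the covariate fit below can therefore weigh receptor level against interneuron content. With the index added to the model as a covariate, an alternative chosen after the data were seen, the subunits' median log2 fold change was -0.08, against -0.07 without it, and Gabra5 was at -0.26 (adjusted p = 0.863). In the model without the index, the subunits' median was -0.02 without male cKO 3 and -0.01 without both male cKO 3 and female cKO 1. Gabra5 was lowest in male cKO 3 (29.5 TPM), followed by female cKO 1 (39.9 TPM), and its log2 fold change without both was -0.12 (adjusted p = 0.845). Without the libraries of conflicting sex it was -0.38 (unadjusted p = 0.00281, adjusted p = 0.343). In the same male cKO 3 library Gfap, an astrocyte filament protein, was at 1270 TPM and Npy at 529 TPM, against 208 to 285 TPM and 108 to 137 TPM in WT, and their part in the receptor values was not tested. By sex, the subunits' median was 0.03 in females and -0.13 in males, and in females it was -0.05 without the 2 libraries whose Y-linked expression went against the label.

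**Figure D4:**
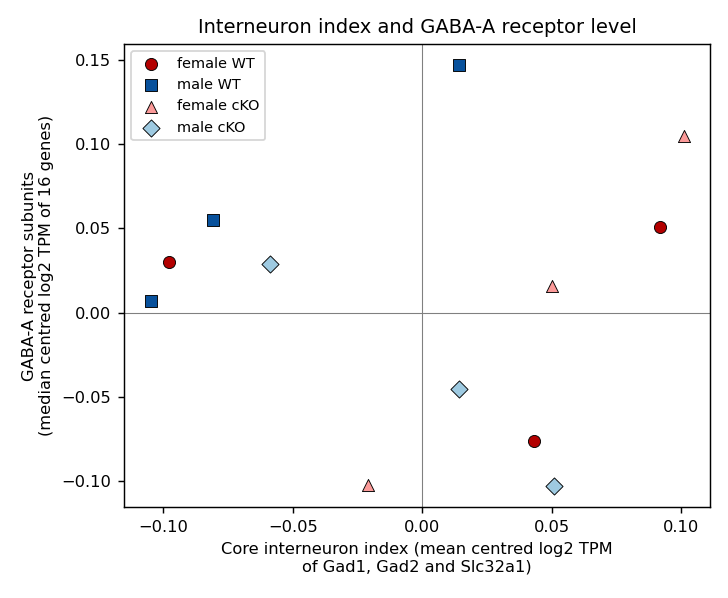
Interneuron index (horizontal axis, mean centred log2 TPM of Gad1, Gad2 and Slc32a1) against the level of the GABA-A receptor subunits (vertical axis, median centred log2 TPM of 16 genes) in the 12 libraries, with a symbol for each group. The points are scattered (Pearson's r 0.02), and WT and cKO libraries overlap along both axes.

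Other genes of the inhibitory pathway gave the same counts of 0 called in either direction and 0 without overlap. Over all genes tested, 0.148% were called and 0.676% did not overlap. At an unadjusted p under 0.05, where 6.64% of all genes lay, the counts differed between lists. There were 1 of 28 subtype markers (Kit) and 2 of 8 perineuronal net genes (Vcan and Hapln1), all with estimates below 0. In the GABA-B receptor and postsynapse list the count was 2 of 14 (Gabbr1 and Clptm1, with estimates above 0). The counts were 0 of 17 transcription factors and 0 of 15 genes of GABA uptake, breakdown, precursor supply and chloride transport. As shares, the perineuronal net and GABA-B lists lay above that of all genes and the other lists of this paragraph below it. Among 28 further subtype markers, all tested, the median log2 fold change was 0.03. The neuropeptide genes Cck, Sst and Npy were the most abundant, with log2 fold changes of -0.04 (adjusted p = 0.95), 0.07 (adjusted p = 0.789) and 0.42 (adjusted p = 0.885). Without male cKO 3, at 529 TPM, Npy was at 0.07 (adjusted p = 0.916). Sst, the marker of dendrite-targeting cells of the Lhx6 lineage, was at 423 ± 15.3 TPM in WT and 443 ± 11.2 TPM in cKO (SD, n = 6 each). Kit, a receptor tyrosine kinase found on some interneurons and named here after its values were seen, had the lowest p of this list, with 44.2 ± 3.78 TPM in WT and 35.2 ± 4.36 TPM in cKO (SD, n = 6 each) and a log2 fold change of -0.33 (SE 0.08, adjusted p = 0.239).

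Of 18 transcription factors of interneuron development, 17 were tested, with a median of -0.06, and the most abundant, Nr2f1, Zeb2 and Satb1, were at 0.07, -0.10 and 0.05 (adjusted p = 0.903, 0.905 and 0.985). The 15 genes of GABA uptake, breakdown, precursor supply and chloride transport had a median of -0.04, with Glul and Slc12a5 at -0.04 and -0.09 (adjusted p = 0.987 and 0.949). Of 9 genes of the perineuronal net, the matrix coat that surrounds many parvalbumin cells, 8 were tested, with a median of -0.02 and 5 of 8 below 0. The most abundant, Bcan, Hapln4 and Ncan, were at 0.02, 0.21 and 0.15 (adjusted p = 0.995, 0.779 and 0.917), and Vcan and Hapln1, named after their values were seen, were at -0.37 and -0.27 (adjusted p = 0.407 and 0.585). Of 15 GABA-B receptor and inhibitory postsynapse genes, 14 were tested, with a median of -0.01, and Gabarapl1, Gabbr1 and Gabarap were at 0.00, 0.12 and 0.06 (adjusted p = 0.999, 0.746 and 0.885).

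**Figure D5:**
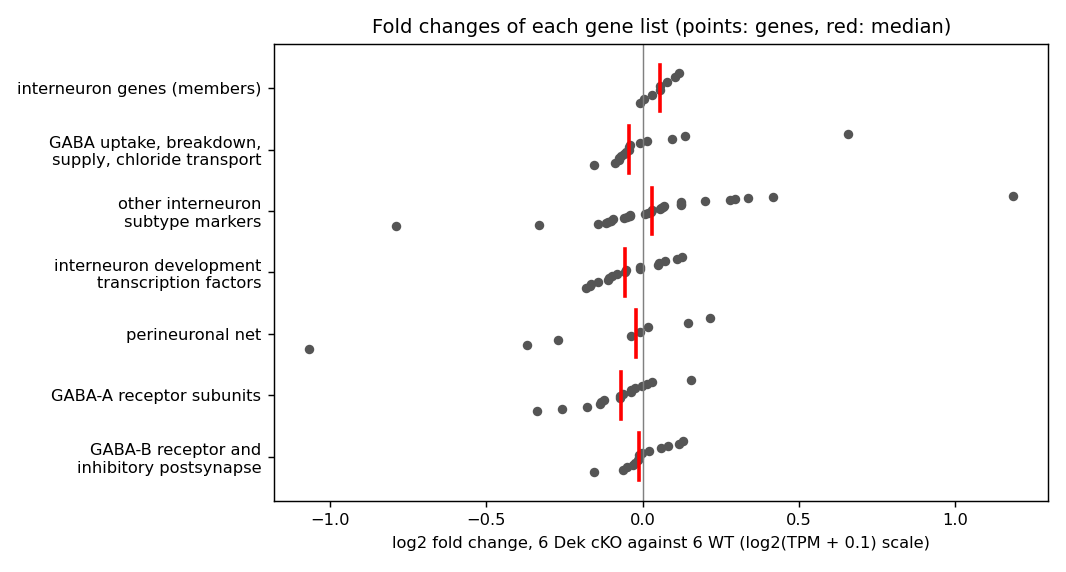
Log2 fold change of 6 Dek cKO against 6 WT libraries (horizontal axis) for each tested gene (points) of the interneuron markers and 6 related gene lists, with the list median in red. The interneuron genes form the tightest group, and the list medians lie between -0.07 and 0.06.

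For each member, the genes with the most similar profile over the 12 libraries were taken by Pearson's r from the other genes with a mean TPM of 1 or more, 14159 in number. The closest were Tmbim4 to Gad1 (0.93), Prmt2 to Gad2 (0.95), Sf1 to Slc32a1 (0.95), Kif5a to Pvalb (0.94), Ptpro to Calb2 (0.93), Pcyox1 to Reln (0.91), Ak1 to Lhx6 (0.91) and Ccdc167 to Dlx1 (0.89). For the interneuron index they were Zfyve26 (0.90), Pigq (0.89) and Arl10 (0.89). No member was the closest gene to another. With 12 points and this many genes, such values are a description and were not tested.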

How the data were processed

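Hippocampal RNA of 6 Dek cKO and 6 WT samples, 3 of each sex, was sequenced from stranded poly-A libraries. The authors deposited TPM values for 26409 genes, in which both library size and transcript length are accounted for. Their methods name STAR and Salmon on GRCm38 and their processing notes name kallisto and mm10; which of these wrote the table is not given in the sources used here. The 12 columns summed to between 825750 and 845553 TPM, and read depth is not kept, so no counting interval was given and the study's count-based test could not be repeated. Groups followed the sample labels, which do not say from which mouse a library came, so p-values measure the spread between these libraries. Ensembl IDs were looked up in GENCODE M21 (25245 were found, 1164 were not), which also gave the coordinates and transcript sequences.

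Values were analysed as log2(TPM + 0.1). Genes averaging 0.1 TPM or more (18197) were tested with limma 3.58.1 in R 4.3.3, two-sided, with a trended prior variance and Benjamini-Hochberg adjustment over all of them. Both sexes were compared as 6 against 6 libraries, and each sex and the difference between sexes in a fit of 4 groups. Calls needed both an adjusted p under 0.05 and a fold change over 1.2. Tested on simulated data of 6 against 6 libraries and 18197 genes, the fit recovered 71.5% of 200 genes given a log2 change of 1. It made 12 false calls there. Changes as small as the members' estimates were not simulated, so the recovery of such changes is not known. Named were all members, the GABA-A subunits tested and, of other lists, genes called or without overlap and the 3 most abundant; some genes of these lists are not reported here singly, though they stay in the counts and medians. Members and lists were chosen with earlier results of these data known. Alternatives were other pseudocounts, filters, scalings and designs, and each library left out. Figures and tables were made in Python 3.11.15.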

Additional observations from a re-analysis of the deposited data

Results flagged for a closer look

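In 8 of 70 groups of 6 libraries examined (WT or cKO, both sexes, for each gene of the naming rule that is given singly), the highest or lowest library lay further from its nearest neighbour than 0.625 of the group's range, the 95% limit for 6 values. Chance alone gives about 1 in 20 groups. Among the interneuron genes these were Pvalb in female cKO 1 (87.6 TPM, the next at 59.2 TPM), Gad2 in male cKO 3 (65.8 TPM, the next at 55.5 TPM) and Dlx1 in female cKO 3 (42.2 TPM, the next at 36.0 TPM). Male cKO 3 accounted for 5 of the 8: beside Gad2 it was highest in Npy (529 TPM, the next at 141 TPM) and Ncan (86.1 TPM, the next at 54.4 TPM) and lowest in Glul (555 TPM, the next at 952 TPM) and Gabra4 (34.0 TPM, the next at 43.1 TPM). Female WT 3 was highest in Hapln4 (61.2 TPM, the next at 50.6 TPM).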

How the results depend on the processing

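In each of 91 alternatives, 0 of the 8 members were called, counting the comparison of both sexes, those within a sex and the difference between sexes. Over both sexes the members' median log2 fold change lay between 0.02 and 0.09 and that of the GABA-A subunits between -0.11 and -0.01. In females these ranges were 0.04 to 0.16 and -0.05 to 0.08, and in males 0.02 to 0.11 and -0.16 to -0.08. Of 514 single-gene values under alternatives, 47 lay on the other side of 0 and 0 were called. With median ratio rescaling Gad2 was at -0.009, and with quantile normalization at -0.012. Without both libraries of conflicting sex Pvalb was at 0.081, Calb2 at -0.047, Gabra3 at 0.1 and Gabrg3 at -0.009. With male WT as the only WT, Reln was at -0.073, Gabrg3 at -0.003 and Gabrr1 at 0.162. With the interneuron index as a covariate, Gabra3 was at 0.044, Gabrg3 at -0.003 and Gabrd at 0.019. Without female cKO 1 and male cKO 3, Gad2 was at -0.018, Gabra3 at 0.033, Gabra4 at 0.016, Gabrg1 at 0.012, Gabrd at 0.079 and Gabrq at 0.056. The cause was not tested for any of these. With each library left out in turn, Gad2 ranged from -0.043 to 0.034, Pvalb from -0.142 to 0.068, Calb2 from -0.062 to 0.152, Reln from -0.027 to 0.143, Gabra3 from -0.067 to 0.056, Gabra4 from -0.092 to 0.003, Gabrb2 from -0.071 to 0.001, Gabrg1 from -0.232 to 0.003, Gabrg3 from -0.001 to 0.065, Gabrd from -0.194 to 0.212, Gabrq from -0.394 to 0.059, Dlx1 from 0.027 to 0.128, Gabrr2 from 0.031 to 0.244 and Gabrr1 from -0.232 to 0.036. Same-numbered cKO and WT libraries of a sex shared only a number: their deviations correlated at -0.0728 to 0.0607. With the replicate block the members' median was 0.055 and 0 members were called, while the genes called over the whole table went from 27 to 3. That count was also 10 with male WT as the only WT, 11 without female cKO 1 and male cKO 3, 12 without the libraries of conflicting sex, 13 with the index as a covariate, 17 with no filter and 13 to 27 with each library left out. The depth of the libraries is unknown.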
